A study of Mus musculus with 18 samples.

Results

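The leukocytes described here were sorted from mice with an inflamed ear, either from the ear skin itself (skin nonmigrated) or from the lymph node that drains it (skin migrated). They fill 6 of the 18 bulk RNA-seq libraries of the series, 3 per group, and were taken by their labels: inflamed ear, and inflamed ear to lymph node. All animals were Kaede mice, which carry a transgene for a photoconvertible protein in cells throughout the body, so that violet light shone on the ear turned cells there from green to red, though not all of them. Mice 6 to 10 weeks of age received Th1 cells polarized for 72 hours from OT-II CD45.1 donors, were immunized with 100 µg ovalbumin (OVA) in Complete Freund's Adjuvant, and were challenged 10 days later with 100 µg heat-aggregated ovalbumin (HAO) in the ear pinna. Some days after the challenge the ear was photoconverted, and ear and draining node were taken on the following day and sorted for viable CD45+ Kaede red+ cells. A red cell in the node was taken to have been in the ear on the previous day, and a red cell in the ear to have been there on both days. Right after exposure of the joint, the study also saw a slight rise of red cells in the node that drains it, so red colour in a node does not by itself show that a cell came from the tissue. The transferred Th1 cells carry no Kaede and lie outside this gate. Each library is a pool of matched male and female mice, so the spread between pools is not the spread between animals. The p-values measure only the spread between pools, 3 per group. The skin libraries were fitted together with those of the inflamed joint, so p-values for skin also rest on the spread between the joint pools. The most similar comparison of the series is the one between joint migrated and joint nonmigrated leukocytes, made in the same way after a challenge in the footpad.

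Leukocytes leave skin through lymphatic vessels. Dendritic cells that mature in the tissue gain CCR7, the receptor for the node chemokines CCL19 and CCL21, and T cells use CCR7 and the sphingosine 1-phosphate receptor S1PR1 to pass out of inflamed tissue. Neutrophils and monocyte-derived macrophages enter through receptors for inflammatory chemokines such as CCR1, CCR2 and CXCR2, and many of them die or settle in the tissue. The comparison asks which transcripts differ between the cells that left inflamed skin and those that stayed in it. All migrated cells came from the node and all nonmigrated cells from the ear. An effect of leaving therefore cannot be told apart from one of the tissue the cells were in or of its handling. The paper itself names adaptation to a new tissue as a possible source of such differences.

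The skin nonmigrated libraries held 19602701 to 22528895 counts in genes and the skin migrated libraries 19239531 to 22378238, so that 3 counts, the limit below which a gene is not called detected here, corresponded to between 0.126 and 0.172 CPM (counts per 1000000 counts of the library). All levels below are CPM scaled with TMM factors. Across genes, replicates correlated with Pearson's r of 0.968 to 0.991 in the nonmigrated and 0.988 to 0.992 in the migrated group, and the first principal component, with 86.0% of the variance, separated the groups. The second, with 8.11%, set nonmigrated replicate 3 apart (48.88, against -17.96 and -34.18 for replicates 1 and 2). That pool was high in mast cell and tissue macrophage transcripts: Mcpt4, a mast cell protease, was at 6.06, 2.29 and 105 CPM in nonmigrated replicates 1, 2 and 3, and Cd163, a scavenger receptor of resident macrophages, at 19.4, 6.83 and 155 CPM. It was low in Ccr7, at 262, 366 and 76.0 CPM, and in Krt5, a keratin of basal keratinocytes, at 69.0, 143 and 11.6 CPM. Ptprc, Coro1a and Laptm5, markers of all leukocytes, differed by less than 2-fold between the groups. Ptprc, which encodes CD45, was at 1183, 1316 and 1211 CPM in the nonmigrated pools and 1462, 1323 and 1529 CPM in the migrated pools (log2 fold change 0.22, adjusted p = 0.136). Coro1a and Laptm5 had log2 fold changes of 0.43 and -0.51. The other planned markers, Cd52 and Cd53, are not given.

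Salivary gland transcripts were present in the migrated pools. Over 16 genes of salivary secretion, chosen after their values were seen, the share of all counts was 2.82%, 0.137% and 1.03% in skin migrated replicates 1, 2 and 3, against at most 0.00127% in any skin nonmigrated library. Bpifa2, a parotid secretory protein, was at 4.98, 4.09 and 6.26 CPM in the nonmigrated pools and 15580, 704 and 5779 CPM in the migrated pools, and Amy1, salivary amylase, at 1.60, 1.46 and 1.33 CPM in the nonmigrated pools and 3877, 214 and 1358 CPM in the migrated pools; 32.7% of the exon length of Amy1 overlaps another gene on its strand. Among these 16 genes 12 were tested and 10 were called higher in skin migrated cells. The part of this RNA in other results was not tested. The count of called genes was 3503 with these 16 genes taken out of the counts and 3508 with them. That step removes only the 16 genes, so it cannot show what such RNA adds to others. Chia1, outside the 16, had the same order of pools, at 837, 37.7 and 358 CPM in migrated replicates 1, 2 and 3.

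**Figure D1:**
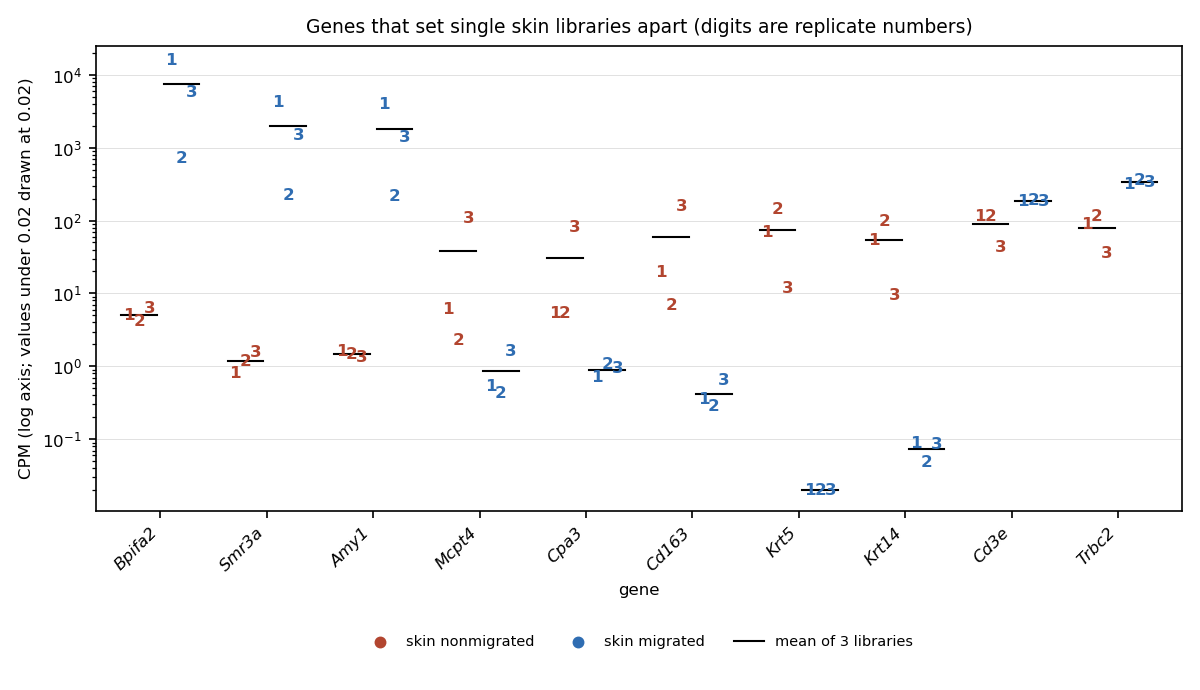
Level in each of the 6 skin libraries (CPM, log axis) of genes that set single libraries apart; each digit is the replicate number, the colour is the group, and the bar is the mean of the 3 libraries. Nonmigrated replicate 3 is high in Mcpt4, Cpa3 and Cd163 and low in Krt5, and the migrated pools hold 703.5 to 15580 CPM of Bpifa2 where the nonmigrated pools hold 4.09 to 6.26.

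A gene was called when its Benjamini-Hochberg adjusted p in edgeR's quasi-likelihood test was under 0.001 and its level differed more than 2-fold (absolute log2 fold change over 1). Of 16777 genes tested, 3508 were called (20.9%), 1424 higher (8.49%) and 2084 lower (12.4%) in skin migrated than in skin nonmigrated cells. The median log2 fold change was 0.01 over all tested genes, 1.87 over those called higher and -2.80 over those called lower. Changes of over 8-fold were found in 388 genes called higher and 976 called lower. In 10345 genes (61.7%) the 3 values of one group did not overlap with the 3 of the other. In bulk samples, fewer cells of a type and less RNA per cell cannot be told apart, so every difference below is one of the sorted population. The higher count was 899 without skin nonmigrated replicate 1, and a fit of the 6 skin libraries alone called 2111 genes, 769 higher and 1342 lower. Without the pools that stand apart, nonmigrated replicate 3 and migrated replicate 1, 2884 genes were called, 1094 higher and 1790 lower.

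**Figure D2:**
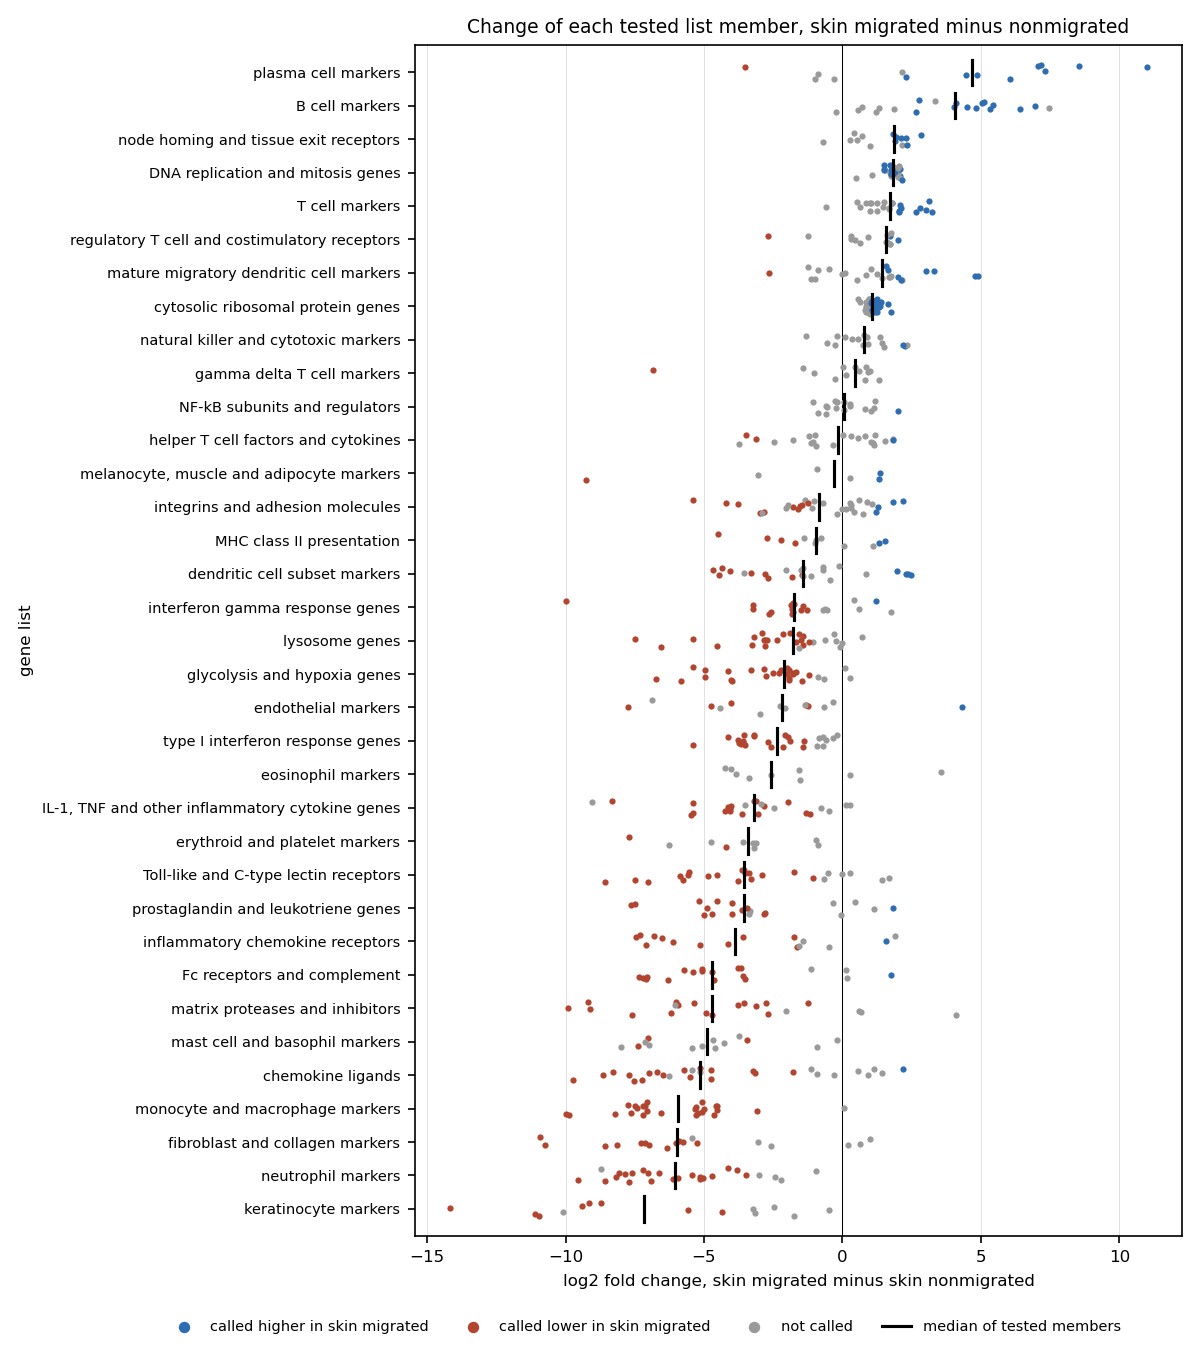
Log2 fold change (skin migrated minus skin nonmigrated) of every tested member of the gene lists, 1 row per list; blue points are called higher, red points called lower, grey points not called, and the bar is the list's median. Neutrophil and macrophage lists lie to the left with medians of -6.03 and -5.94, B cell and plasma cell lists to the right with 4.06 and 4.67, and NF-kB genes centre on 0.07.

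For every list below, the shares over all tested genes to set beside its counts are 8.49% called higher and 12.4% called lower. Several list counts depended on the fit. With glmTreat, which tests against a 2-fold change and not against none, the count called higher was 2 and not 7 of the node homing receptors, 4 and not 10 of the T cell markers, and 2 and not 8 of the mature dendritic cell markers, and the count called lower was 6 and not 14 of the interferon gamma response genes and 6 and not 10 of the adhesion molecules. Of the 5 lists, the T cell and mature dendritic cell lists went the other way with DESeq2, to 16 and 13 called higher. In the fit of the 6 skin libraries alone, 3 node homing receptors, 4 T cell markers and 5 plasma cell markers were called higher, and 15 macrophage, 5 fibroblast, 4 dendritic cell subset and 2 keratinocyte markers lower. DESeq2 called 11 mast cell and basophil markers lower, and glmTreat 2 endothelial markers.

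Receptors for node homing and tissue exit were higher in part in skin migrated cells. Of 14 such receptors and regulators, 7 were called higher, 0 lower and 7 were not called, with a median log2 fold change of 1.85 against 0.01 over all tested genes. Their values ran from -0.72 to 2.83. S1pr1, the egress receptor, was at 43.8, 44.4 and 36.5 CPM in the nonmigrated pools and 312, 236 and 341 CPM in the migrated pools (log2 fold change 2.83, SE 0.18, adjusted p = 3.53e-07). Every migrated pool was over 5 times as high as any nonmigrated pool. Ccr4, a skin-homing receptor of T cells, was at 12.5, 10.9 and 4.38 CPM in the nonmigrated pools and 57.9, 41.6 and 40.8 CPM in the migrated pools (log2 fold change 2.34, adjusted p = 0.000338). Cxcr5, the receptor that draws lymphocytes to follicles, Gpr183, an oxysterol receptor that positions cells in the node, S1pr4 and Ccr10 had log2 fold changes of 2.28, 1.95, 1.88 and 2.11. Ccr7 itself was at 262, 366 and 76.0 CPM in the nonmigrated pools and 1006, 862 and 1273 CPM in the migrated pools. Its groups did not overlap, and it was not called (log2 fold change 2.16, SE 0.495, adjusted p = 0.00299), nor without the low nonmigrated replicate 3 (log2 fold change 1.74, adjusted p = 0.00228), while DESeq2 called it (log2 fold change 2.13, adjusted p = 2.59e-05). Cxcr4, Klf2, a transcription factor that drives S1pr1, and Cd69, which holds S1PR1 inside the cell, were not called either, at log2 fold changes of 0.28, 0.53 and 1.00. Nor were Ccr8, Ccr9 and Itgb7. The count of 7 was 3 without nonmigrated replicate 1 or migrated replicate 3, and 4 without migrated replicate 1 or 2.

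Receptors for inflammatory chemokines and other chemoattractants went the other way. The list of 16 also holds C5ar1 and the formyl peptide receptors Fpr1 and Fpr2, which do not bind chemokines. Of the 16, 11 were called lower, 1 higher and 4 were not called, with a median of -3.87. The 1 called higher compares with 8.49% of all tested genes. Ccr1, which binds CCL3 and CCL5, was at 1041, 956 and 881 CPM in the nonmigrated pools and 8.76, 7.55 and 9.26 CPM in the migrated pools (log2 fold change -6.81, SE 0.233, adjusted p = 8.48e-09), and had one of the smallest p-values in the comparison. C5ar1, the receptor for complement fragment C5a, was at 249, 248 and 320.1 CPM in the nonmigrated pools and 2.52, 1.24 and 2.15 CPM in the migrated pools (-7.10), and Cxcr2, the neutrophil receptor for CXCL1 and CXCL2, at 132, 157 and 105 CPM in the nonmigrated pools and 2.21, 0.76 and 2.65 CPM in the migrated pools (-6.12). For all of these, every migrated pool was under 10 CPM and every nonmigrated pool over 100. Ccr2, a receptor of monocytes and effector T cells, differed less, by -1.63, and was at 203, 154 and 186 CPM in the migrated pools. The one receptor called higher was Cxcr3, typical of Th1 and cytotoxic T cells, at 21.3, 30.7 and 23.7 CPM in the nonmigrated pools and 61.5, 77.6 and 87.8 CPM in the migrated pools (log2 fold change 1.58, adjusted p = 0.00034). That count was 2 without nonmigrated replicate 2 and 0 without nonmigrated replicate 1 or migrated replicate 2 or 3. Ccr6, Cxcr6, Ccr3 and Xcr1 were not called.

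**Figure D3:**
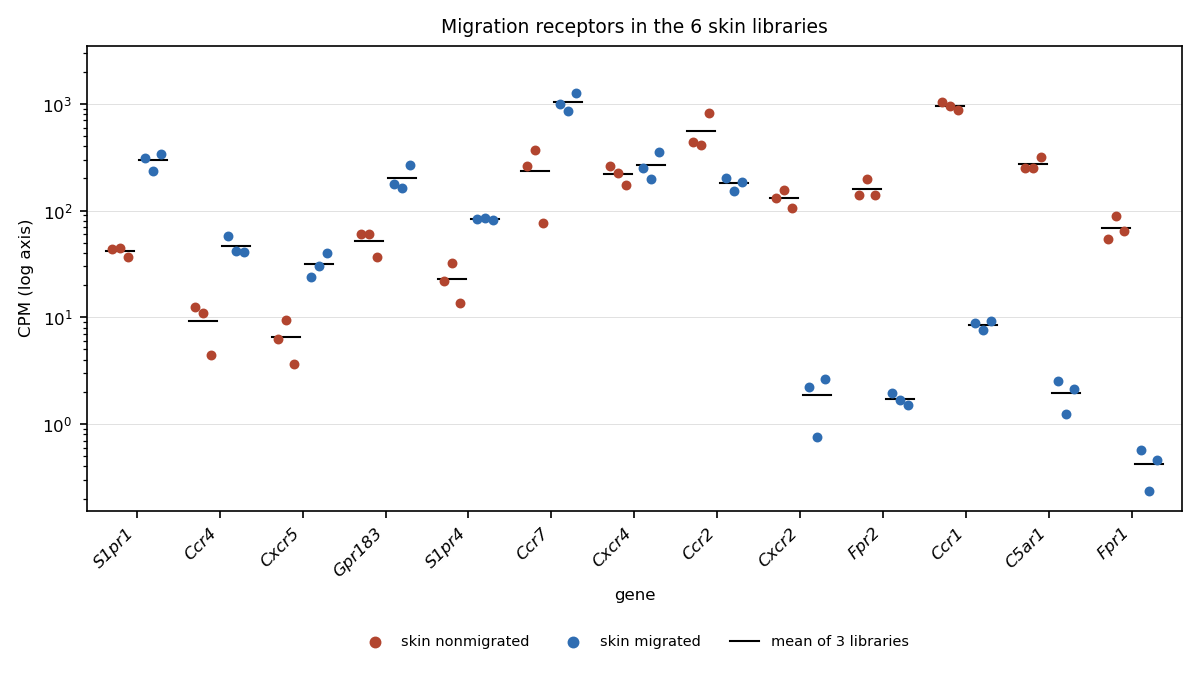
Level (CPM, log axis) of migration receptors in each of the 6 skin libraries; each point is 1 pool, the colour is the group, and the bar is the mean of 3. S1pr1 is at 36.5 to 44.4 CPM in nonmigrated and at 236 to 341 CPM in migrated pools, and Ccr1 at 881 to 1041 against 7.55 to 9.26.

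The ligands followed the inflammatory receptors. Of 30 chemokine genes 28 were tested (Ccl19 and Ccl20 were not), and 17 were called lower, 1 higher and 10 not, with a median of -5.16. Cxcl2, which attracts neutrophils through CXCR2, was at 3158, 3104 and 1373 CPM in the nonmigrated pools and 30.2, 8.88 and 11.3 CPM in the migrated pools (log2 fold change -7.24, adjusted p = 1.19e-05), and Cxcl3, its near relative, at 1153, 638 and 652 CPM in the nonmigrated pools and 0.929, 0.76 and 1.18 CPM in the migrated pools (log2 fold change -9.72, adjusted p = 1.14e-06). Ccl3, a ligand of CCR1, was at 1795, 2043 and 542 CPM in the nonmigrated pools and 18.4, 9.74 and 13.7 CPM in the migrated pools (log2 fold change -6.71, adjusted p = 1.21e-06), and Ccl2, which recruits monocytes through CCR2, at 138, 61.1 and 146 CPM in the nonmigrated pools and 0.354, 0.19 and 0.295 CPM in the migrated pools (log2 fold change -8.65, adjusted p = 2.38e-06). No migrated pool held more than 30.2 CPM of any of these, and no nonmigrated pool less than 61.1 CPM. Ccl5, made by T cells and natural killer cells, was the exception and was called higher at 149, 190.4 and 126 CPM in the nonmigrated pools and 599.7, 732 and 769.6 CPM in the migrated pools (log2 fold change 2.17, adjusted p = 3.09e-06), 1 of 2 called higher without nonmigrated replicate 2. Ccl22, made by mature dendritic cells, was at 320.3, 491 and 116 CPM in the nonmigrated pools and 643, 834 and 1010 CPM in the migrated pools and was not called (log2 fold change 1.43, adjusted p = 0.0228). The promoters of Cxcl2 and Cxcl3 are shown because 4 of the 20 ligand promoters in the RefSeq table (those of Ccl9, Cxcl1, Cxcl2 and Cxcl3) hold a match to an NF-kB type motif (GGG, any 2 bases, then TTTCC) on either strand, against 2.14% of the promoters of all tested genes. Both are 300 bases around the RefSeq start site in build GRCm38.p6, plus strand, written 5′ to 3′ with the matches in capitals, at chr5:90903649-90903948 for Cxcl2 and chr5:90785851-90786150 for Cxcl3.
Cxcl2: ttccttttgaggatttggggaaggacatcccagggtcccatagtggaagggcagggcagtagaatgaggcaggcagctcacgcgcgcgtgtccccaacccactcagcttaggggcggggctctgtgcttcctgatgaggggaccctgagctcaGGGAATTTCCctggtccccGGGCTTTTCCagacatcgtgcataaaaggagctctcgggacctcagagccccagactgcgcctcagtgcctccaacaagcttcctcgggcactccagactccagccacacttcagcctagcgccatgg
Cxcl3: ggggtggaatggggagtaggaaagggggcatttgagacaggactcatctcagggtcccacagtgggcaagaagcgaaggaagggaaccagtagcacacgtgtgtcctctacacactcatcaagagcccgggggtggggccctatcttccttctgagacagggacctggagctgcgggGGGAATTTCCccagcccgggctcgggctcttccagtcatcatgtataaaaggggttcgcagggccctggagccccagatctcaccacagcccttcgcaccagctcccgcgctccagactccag
The first match starts 97 bases before the start site in Cxcl2, which holds 2 matches, and 73 bases before it in Cxcl3. A match describes these letters and shows no binding.

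Among 32 integrins and other adhesion molecules, 4 were called higher, 10 lower and 18 were not called, with a median of -0.86. Over all tested genes 8.49% were called higher and 12.4% lower, so the higher count was near its share. Itgam, the alpha chain of the myeloid integrin CR3, was at 492, 348 and 626 CPM in the nonmigrated pools and 10.5, 10.3 and 14.1 CPM in the migrated pools (log2 fold change -5.39, adjusted p = 7.49e-08); 68.7% of its exon length overlaps another annotated gene on the same strand, so its counts are less certain. Itgb2, the beta chain it shares with other leukocyte integrins, was called lower by -1.77, while Itgal, the alpha chain of the lymphocyte integrin LFA-1, was at 298, 412 and 242 CPM in the nonmigrated pools and 611, 582 and 567 CPM in the migrated pools and was not called (log2 fold change 0.89, adjusted p = 0.00212). Itga4, a chain of the integrin VLA-4, rose to 407, 417 and 563 CPM from 165, 223 and 181 CPM (log2 fold change 1.29, adjusted p = 0.000259), and Itga6, a laminin receptor chain, by 1.20. Cd44, the hyaluronan receptor, was lower (-1.54), as were the fibronectin and vitronectin receptor chains Itga5 (-2.97) and Itgav (-1.60) and the collagen receptor chain Itga1 (-2.83). Itgae, which ties lymphocytes and dendritic cells to epithelium, was at 92.5, 118 and 41.6 CPM in the nonmigrated pools and 128, 94.7 and 88.5 CPM in the migrated pools, with overlapping groups (log2 fold change 0.30, adjusted p = 0.469). The higher count was 2 without nonmigrated replicate 1 or 3 or migrated replicate 3.

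T cell transcripts were higher in the migrated pools in part. Of 24 T cell markers 10 were called higher, 0 lower and 14 were not called, with a median of 1.70. Cd8b1, a chain of the CD8 co-receptor, was at 21.4, 28.8 and 12.5 CPM in the nonmigrated pools and 152, 230.2 and 212 CPM in the migrated pools (log2 fold change 3.25, adjusted p = 4.24e-05), and Cd8a at 30.5, 47.4 and 16.8 CPM in the nonmigrated pools and 180.5, 232 and 244 CPM in the migrated pools (log2 fold change 2.79, adjusted p = 8.04e-05). Tcf7, a transcription factor of naive and memory T cells, was at 125, 136 and 49.7 CPM in the nonmigrated pools and 732, 908 and 905 CPM in the migrated pools (log2 fold change 3.03, adjusted p = 2.31e-05), and Lef1, its partner in naive cells, was higher by 2.65. Cd27, a costimulatory receptor of T and B cells, was at 12.9, 18.1 and 9.26 CPM in the nonmigrated pools and 96.3, 125 and 131 CPM in the migrated pools (log2 fold change 3.13, adjusted p = 3.39e-06), and Bcl11b, a factor of T cell identity, was higher by 2.10. The invariant chain gene Cd3e was at 115, 114 and 42.7 CPM in the nonmigrated pools and 183, 186 and 184 CPM in the migrated pools and was not called (log2 fold change 1.03, adjusted p = 0.0222), nor was Cd4, at 199.7, 228 and 93.7 CPM in the nonmigrated pools and 358, 322 and 256 CPM in the migrated pools (log2 fold change 0.85, adjusted p = 0.0337). Both show the same low value in nonmigrated replicate 3, where the summed T cell markers were at 1459 CPM against up to 3113 CPM in the other nonmigrated pools and 6241 to 6423 CPM in the migrated pools. The count of 10 was 5 without nonmigrated replicate 1 or migrated replicate 1 and 4 without migrated replicate 2 or 3. Il7r, the receptor for the survival cytokine IL-7, was alone among the 24 in having a negative fold change (log2 fold change -0.61, adjusted p = 0.0173).

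Gamma delta T cell genes did not follow. None of 13 was called higher and 1 was called lower, with a median of 0.44, and the summed level was 496.3 to 565.9 CPM in nonmigrated and 313.7 to 408.3 CPM in migrated pools. The lower count was 2 without nonmigrated replicate 2. The gene called was Tcrg-V5, the gamma variable segment of the dendritic epidermal T cells that reside in mouse epidermis, at 19.2, 17.9 and 5.12 CPM in the nonmigrated pools and 0.0885, 0.237 and 0.0421 CPM in the migrated pools (log2 fold change -6.83, SE 0.655, adjusted p = 6.6e-06). The migrated pools were at or near the 3-count limit for it. Trdc, the constant segment of the delta chain, was at 146, 149 and 48.1 CPM in the nonmigrated pools and 89.5, 84.6 and 111 CPM in the migrated pools (log2 fold change -0.27, adjusted p = 0.582), and Tcrg-V6, the segment of dermal IL-17 producers, was at or under 1.28 CPM in every pool. Il17a was at 5.49, 8.96 and 1.38 CPM in the nonmigrated pools and 8.14, 2.80 and 5.14 CPM in the migrated pools, with overlapping groups.

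Of 15 genes of regulatory T cells and costimulation, 2 were called higher and 1 lower, with a median of 1.56. Both counts were near the shares over all tested genes, 8.49% called higher and 12.4% called lower. Foxp3, the factor that defines regulatory T cells, was at 48.3, 49.3 and 20.1 CPM in the nonmigrated pools and 156, 126 and 102 CPM in the migrated pools (log2 fold change 1.71, adjusted p = 0.000663), and Ikzf2, which encodes Helios, was higher by 2.02. Havcr2, which encodes TIM-3 and is also made by myeloid cells, was lower (-2.69). Il2ra, Ctla4, Icos and Tnfrsf4 had log2 fold changes of 1.56 to 1.76 with groups apart, nonmigrated replicate 3 being the lowest of its group, and none was called. The higher count was 1 without any single pool other than nonmigrated replicate 3. Among 22 helper T cell factors and cytokines, 1 was called higher, 2 lower and 19 were not called, with a median of -0.16. These counts, too, were near the shares over all tested genes. Ltb, lymphotoxin beta, was at 60.8, 70.7 and 32.1 CPM in the nonmigrated pools and 191, 197 and 194 CPM in the migrated pools (log2 fold change 1.83, adjusted p = 0.000394). Il4, the type 2 cytokine, was at 8.52, 8.79 and 2.07 CPM in the nonmigrated pools and 0.487, 0.475 and 0.758 CPM in the migrated pools (log2 fold change -3.48, adjusted p = 0.000212), and Tnf at 300.4, 325 and 134 CPM in the nonmigrated pools and 42.8, 23.2 and 20.8 CPM in the migrated pools (log2 fold change -3.13, adjusted p = 3.55e-05). Ifng, the cytokine of Th1 cells, was at 57.7, 91.9 and 14.1 CPM in the nonmigrated pools and 29.5, 18 and 23.2 CPM in the migrated pools and was not called (log2 fold change -1.21, adjusted p = 0.0689). The higher count was 0 without nonmigrated replicate 1 or any one migrated pool, and the lower count ran from 1 to 4, with 4 without nonmigrated replicate 3 and 1 without nonmigrated replicate 1 or migrated replicate 1 or 2. Of 17 natural killer and cytotoxic genes only Ccl5 (2.17) and Klrg1 (2.25) were called, both higher (1 without nonmigrated replicate 1 or 3 or migrated replicate 1 or 2), and Klrg1, an inhibitory receptor of differentiated cytotoxic cells, was at 3.66, 9.52 and 4.24 CPM in the nonmigrated pools and 34.8, 26.3 and 21.5 CPM in the migrated pools. Gzmb and Prf1, which encode granzyme B and perforin, were not called, at -0.55 and -0.20. The count of 2 of 17 called higher was near the 8.49% of all tested genes.

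B cell and plasma cell transcripts were among those with the largest differences in the upward direction. Of 20 B cell markers 12 were called higher, 0 lower and 8 were not called, with a median of 4.06. The 8 include Ebf1, Bank1 and Cd72, and the lowest value in the list was -0.24. Of 14 plasma cell markers 9 were called higher and 1 lower, with a median of 4.67. Ms4a1, which encodes CD20, was at 0.229, 1.01 and 0.591 CPM in the nonmigrated pools and 24.0, 12.2 and 28.2 CPM in the migrated pools (log2 fold change 5.13, adjusted p = 5.58e-06). Pax5, the factor that keeps B cell identity, was at 0.286, 0.056 and 0.197 CPM in the nonmigrated pools and 24.4, 13.6 and 31.0 CPM in the migrated pools (log2 fold change 6.97, adjusted p = 1.19e-05), and Cd79a, a signalling chain of the B cell receptor, at 0.515, 0.952 and 1.72 CPM in the nonmigrated pools and 44.9, 31.4 and 56.3 CPM in the migrated pools (log2 fold change 5.34, adjusted p = 3.77e-06). In the nonmigrated pools these genes were at 1.72 CPM or less, and Pax5 was under the 3-count limit in replicate 2. Such low levels left little room for a lower call. Jchain, which joins secreted IgM and IgA, was at 0.229, 2.58 and 4.68 CPM in the nonmigrated pools and 356, 239 and 436 CPM in the migrated pools (log2 fold change 7.08, adjusted p = 7.86e-06), and Mzb1, a chaperone of antibody secretion, at 0, 0.112 and 0.591 CPM in the nonmigrated pools and 15.6, 14.9 and 19.9 CPM in the migrated pools (log2 fold change 6.06, adjusted p = 8.31e-06). Nonmigrated replicates 1 and 2 were under the 3-count limit for Mzb1, so the size of its change is uncertain. Ighm, the IgM heavy chain, was at 52.9, 79.3 and 146 CPM in the nonmigrated pools and 4357, 2988 and 4617 CPM in the migrated pools (log2 fold change 5.42, adjusted p = 1.56e-06), and the switched chain Ighg2c at 0.801, 1.74 and 7.29 CPM in the nonmigrated pools and 768, 886 and 2049 CPM in the migrated pools (log2 fold change 8.53, adjusted p = 3.23e-05). Of the 175 immunoglobulin variable segments that passed the filter, 120 were called higher and 0 lower. Their summed level was 2.40, 8.57 and 27.7 CPM in the nonmigrated and 2685, 1796 and 3999 CPM in the migrated pools. At such low nonmigrated levels hardly any segment could have been called lower, so the count of 0 carries no information. All 8 heavy chain constant genes tested were called higher. These genes have near-identical copies, so the split of counts between single segments is uncertain, while their sums are less affected. Sdc1, a plasma cell marker that epithelial cells and macrophages also make, was lower, at 179.6, 104 and 274 CPM in the nonmigrated pools and 17.7, 11.7 and 19.6 CPM in the migrated pools (log2 fold change -3.50, adjusted p = 1.31e-05), 1 of 2 called lower without nonmigrated replicate 2 or migrated replicate 3, and Xbp1 and Prdm1 were not called.

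Markers of mature migratory dendritic cells were higher in part. Of 26, 25 were tested, and 8 were called higher, 1 lower and 16 were not called, with a median of 1.42. Fscn1, which encodes the actin bundler fascin of mature dendritic cells, was at 309.9, 509 and 110.2 CPM in the nonmigrated pools and 2338, 3397 and 3457 CPM in the migrated pools (log2 fold change 3.31, adjusted p = 0.000239). Apol7c was at 23.5, 35.0 and 13.0 CPM in the nonmigrated pools and 547, 599 and 834 CPM in the migrated pools (log2 fold change 4.79, adjusted p = 9.85e-06) and Slco5a1 at 5.21, 4.14 and 1.68 CPM in the nonmigrated pools and 94.0, 111 and 118 CPM in the migrated pools (log2 fold change 4.88, adjusted p = 4.62e-06), both markers of this state. Cacnb3, Socs2, Relb, Marcksl1 and Zmynd15 were called higher by 3.02, 2.10, 2.02, 1.65 and 1.57. The costimulatory ligand genes did not follow as a group: Cd86 was at 159, 157 and 137 CPM in the nonmigrated pools and 119, 138 and 195 CPM in the migrated pools (log2 fold change -0.00, adjusted p = 0.992), and Cd80 and Cd40 were not called, at -0.88 and 1.25. Cd274, which encodes PD-L1, was the member called lower, at 3035, 3442 and 1504 CPM in the nonmigrated pools and 418, 379.7 and 486 CPM in the migrated pools (log2 fold change -2.64, adjusted p = 0.000103). The count of 8 was 4 without nonmigrated replicate 1.

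Among 24 dendritic cell subset markers, 4 were called higher, 9 lower and 11 were not called, with a median of -1.44. The 4 were Flt3, the growth factor receptor of dendritic cells, at 57.1, 73.8 and 63.2 CPM in the nonmigrated pools and 294, 384 and 408 CPM in the migrated pools (log2 fold change 2.48, adjusted p = 2.73e-05), and the factors Zbtb46 (1.98), Batf3 (2.37) and Irf4 (2.30). Those lower included the dermal dendritic cell and macrophage lectins Clec10a and Mgl2, at -4.68 and -4.05, and Cd207, the langerin of Langerhans cells, which was at 3.38, 4.42 and 1.28 CPM in the nonmigrated pools and 0.0442, 0.285 and 0.0842 CPM in the migrated pools (log2 fold change -4.44, adjusted p = 0.000204). Migrated replicates 1 and 3 were under the 3-count limit for Cd207, so the size of its change is uncertain. Cdh1, the E-cadherin by which Langerhans cells hold on to keratinocytes and which keratinocytes also express, was at 159, 174 and 86.7 CPM in the nonmigrated pools and 8.98, 5.22 and 6.36 CPM in the migrated pools (log2 fold change -4.35, adjusted p = 8.09e-07). Xcr1 and Clec9a, of cross-presenting dendritic cells, were not called. MHC class II genes did not move together: of 12, 2 were called higher, 4 lower and 6 were not called, with a median of -0.97. Over all tested genes 8.49% were called higher and 12.4% lower. H2-Ab1 was at 3230, 2646 and 4621 CPM in the nonmigrated pools and 956, 1112 and 1144 CPM in the migrated pools (log2 fold change -1.71, adjusted p = 0.000111), and Cd74, the invariant chain, was not called (-0.98). March1, the ligase that removes class II from the surface and is shut down as dendritic cells mature, was at 180.2, 125 and 224 CPM in the nonmigrated pools and 9.07, 5.60 and 9.01 CPM in the migrated pools (log2 fold change -4.48, adjusted p = 1.43e-07). Ciita, the class II transactivator, was at 125, 123 and 235 CPM in the nonmigrated pools and 130.3, 193 and 181 CPM in the migrated pools, with overlapping groups, and the peptide exchange regulators H2-Oa and H2-DMb2 were higher by 1.54 and 1.33. The higher count for class II was 1 without nonmigrated replicate 1.

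Neutrophil transcripts were far lower in the migrated pools. Of 26 neutrophil markers 21 were called lower, 0 higher and 5 were not called, with a median of -6.03, and their summed level was 5065 to 9385 CPM in nonmigrated and 106.3 to 150.8 CPM in migrated pools. S100a8 and S100a9, which form calprotectin, were at 602, 767 and 324 CPM in the nonmigrated pools and 3.32, 0.475 and 2.40 CPM in the migrated pools (log2 fold change -8.08, adjusted p = 5.62e-06) and at 628, 836 and 476 CPM in the nonmigrated pools and 3.19, 1.09 and 4.08 CPM in the migrated pools (log2 fold change -7.85, adjusted p = 2.66e-06). Csf3r, the receptor for G-CSF, was at 467, 604 and 411 CPM in the nonmigrated pools and 15.2, 9.36 and 10.0 CPM in the migrated pools (log2 fold change -5.42, adjusted p = 1.07e-05). The granule genes Elane, Mpo and Camp, made in bone marrow precursors, were below 1 CPM in every skin pool and were not called. The promoter of S100a9 is shown as one of 9 among the 24 neutrophil promoters in the table that hold a match to the C/EBP type motif TTGCNNAA, against 10.71% of all tested genes with a promoter. It lies at chr3:90695672-90695971 (GRCm38.p6, minus strand) and holds 1 match, starting 236 bases before the start site, in capitals.
S100a9: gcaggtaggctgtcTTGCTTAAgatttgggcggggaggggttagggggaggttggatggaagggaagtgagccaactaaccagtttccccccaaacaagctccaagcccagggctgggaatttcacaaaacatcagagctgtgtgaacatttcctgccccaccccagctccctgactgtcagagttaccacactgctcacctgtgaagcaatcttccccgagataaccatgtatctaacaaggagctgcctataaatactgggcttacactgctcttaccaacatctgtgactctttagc

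Monocyte and macrophage markers had the largest share of members called lower of all lists described here: 25 of 26 were called lower, 0 higher and 1 was not called, with a median of -5.94. Arg1, which encodes arginase, was at 6206, 3024 and 5287 CPM in the nonmigrated pools and 7.34, 2.85 and 5.05 CPM in the migrated pools (log2 fold change -9.89, adjusted p = 5.16e-07), and Nos2, which encodes inducible nitric oxide synthase, at 2666, 1986 and 1770 CPM in the nonmigrated pools and 2.57, 2.52 and 1.30 CPM in the migrated pools (log2 fold change -9.98, adjusted p = 2.68e-08). Spp1, osteopontin, and Cd14, the lipopolysaccharide co-receptor, were lower by -8.21 and -7.50. Csf1r, the receptor on which macrophages depend, was at 1090, 765 and 1894 CPM in the nonmigrated pools and 54.1, 40.0 and 68.3 CPM in the migrated pools (log2 fold change -4.53, adjusted p = 5.42e-06). Ly6c2, of inflammatory monocytes and also of plasma cells and some T cells, was the one not called, at 211, 327 and 331 CPM in the nonmigrated pools and 267, 283 and 343 CPM in the migrated pools. The complement genes C1qa, C1qb and C1qc were lower by -4.66, -5.07 and -5.07 and were highest in nonmigrated replicate 3, where C1qa was at 871 CPM. Of 19 Fc receptor and complement genes 15 were called lower and 1 higher, with a median of -4.70. Fcgr3, an activating IgG receptor, was at 979, 791 and 1095 CPM in the nonmigrated pools and 12.3, 11.5 and 12.6 CPM in the migrated pools (log2 fold change -6.30, adjusted p = 6.76e-09), and Cd55, which protects cells from complement, was the one called higher (1.76); that count was 0 without nonmigrated replicate 1 or 3 or migrated replicate 1 or 3. Among 24 genes of Toll-like and C-type lectin receptors 18 were called lower and 0 higher, led by Clec4d (-8.58), Cd14 (-7.50) and Clec4e (-7.01). Clec4d and Clec4e sense mycobacterial and fungal glycolipids. Clec7a, dectin-1, was at 4451, 3049 and 1747 CPM in the nonmigrated pools and 83.3, 45.6 and 70.8 CPM in the migrated pools (log2 fold change -5.53, adjusted p = 3.87e-06), and Tlr4 was lower by -5.86, whereas Tlr9, Tlr1, Tlr11 and Tlr12 were not called.

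Mast cell, basophil and eosinophil genes could be resolved only in part. Of 14 mast cell and basophil markers 3 were called lower, 0 higher and 11 were not called, with a median of -4.88. Those 3 included the basophil protease gene Mcpt8, at 93.1, 184 and 46.0 CPM in the nonmigrated pools and 0.841, 0.57 and 0.505 CPM in the migrated pools (log2 fold change -7.39, adjusted p = 7.04e-06), and Gata2, at 161, 293 and 70.0 CPM in the nonmigrated pools and 1.37, 1.28 and 1.39 CPM in the migrated pools (log2 fold change -7.01, adjusted p = 1.86e-05). The mast cell genes Cpa3 and Cma1 were lower in every migrated pool than in any nonmigrated pool, but nonmigrated replicate 3 held most of their counts, with Cpa3 at 5.32, 5.32 and 80.3 CPM over the nonmigrated pools, and neither was called. None of 9 eosinophil markers was called, with a median of -2.59.

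Interferon response genes were lower in the migrated cells. Of 26 type I interferon response genes 19 were called lower, 0 higher and 7 were not called, with a median of -2.37, and leaving out any one skin library gave 19 or 20. Rsad2, which encodes the antiviral enzyme viperin, was at 746, 883 and 476 CPM in the nonmigrated pools and 17.8, 16.1 and 16.5 CPM in the migrated pools (log2 fold change -5.39, SE 0.246, adjusted p = 4.33e-08). Ifit1, Ifit2 and Ifit3, which bind viral RNA, were lower by -3.53, -3.56 and -3.74, and Irf7, the factor that amplifies interferon production, by -3.19. Isg15, a ubiquitin-like modifier, was at 184, 202 and 139 CPM in the nonmigrated pools and 31.7, 39.0 and 46.5 CPM in the migrated pools (log2 fold change -2.16, adjusted p = 1.1e-05). The groups did not overlap in 24 of the 26 genes, against 61.7% of all tested genes. Ddx58, Mx1 and Usp18 were among those not called. Of 21 interferon gamma response genes 14 were called lower, 1 higher and 6 were not called, with a median of -1.74. Gbp2, a guanylate-binding protein, was at 1271, 1550 and 1133 CPM in the nonmigrated pools and 313, 433 and 403 CPM in the migrated pools (log2 fold change -1.78, adjusted p = 0.000524), and Irgm1 and Igtp, GTPases that act on pathogen vacuoles, were lower by -2.58 and -1.87. Socs1, which inhibits signalling from interferon receptors, was at 103, 114 and 90.2 CPM in the nonmigrated pools and 35.0, 36.8 and 38.0 CPM in the migrated pools (log2 fold change -1.48, SE 0.116, adjusted p = 1.58e-06). The immunoproteasome genes Psmb8 and Psmb9 were not called, at 0.61 and 0.43. The count of 14 was 9 without migrated replicate 1 or 2. The gene called higher was Serpina3g (1.22), and that count was 0 without nonmigrated replicate 1 or any one migrated pool.

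**Figure D4:**
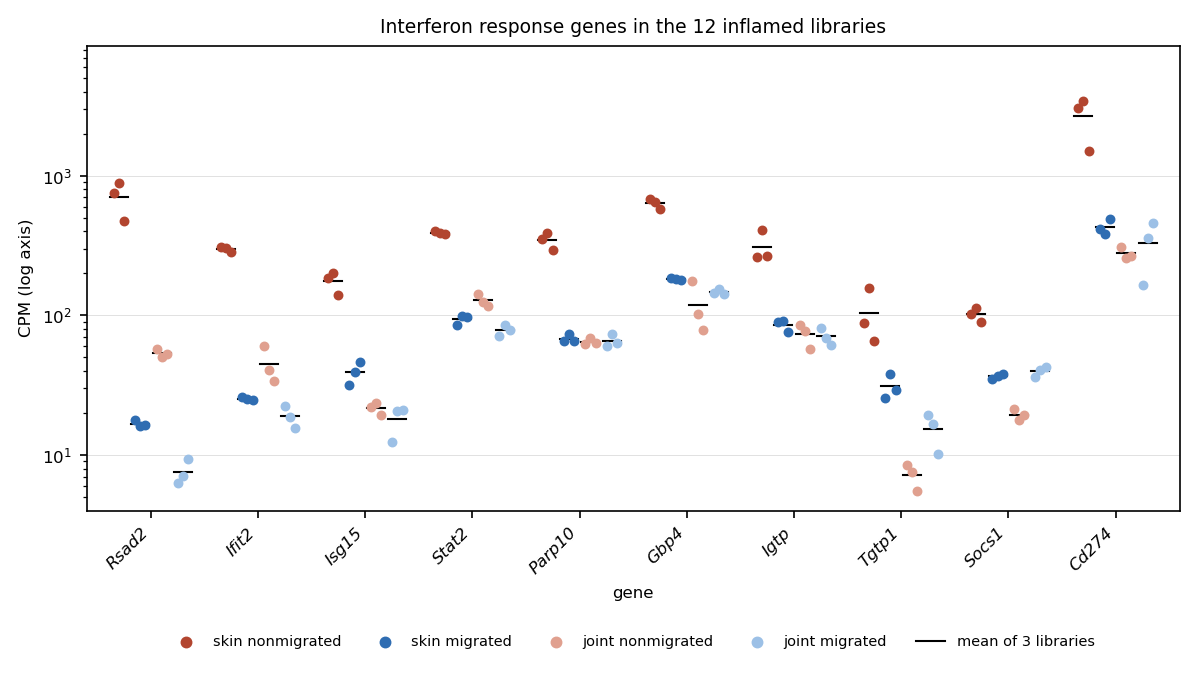
Level (CPM, log axis) of interferon response genes in the skin and joint libraries; each point is 1 pool, the colour is 1 of the 4 groups, and the bar is the mean of 3. Skin nonmigrated pools are highest for Rsad2, at 476 to 883 CPM, and Socs1 is at 35.0 to 38.0 CPM in skin migrated against 90.2 to 114 CPM in skin nonmigrated pools.

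The promoters of Rsad2, Isg15 and Socs1 carry an interferon response type motif, a pair of GAAA runs with any 2 bases between them, and are shown with their matches on either strand in capitals. This motif was found in 12 of 19 type I interferon response promoters and 10 of 17 interferon gamma response promoters in the table, against 4.01% of all 11658 tested genes with a promoter. All 3 genes lie on the minus strand, at chr12:26456403-26456702, chr4:156200769-156201068 and chr16:10785487-10785786 (GRCm38.p6), and the sequences run 5′ to 3′ in the direction of transcription.
Rsad2: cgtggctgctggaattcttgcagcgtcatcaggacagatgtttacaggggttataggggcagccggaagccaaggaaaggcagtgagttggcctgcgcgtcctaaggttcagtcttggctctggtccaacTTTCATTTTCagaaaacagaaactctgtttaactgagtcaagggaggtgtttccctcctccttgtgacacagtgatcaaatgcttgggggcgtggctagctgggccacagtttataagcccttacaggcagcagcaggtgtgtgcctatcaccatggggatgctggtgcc
Isg15: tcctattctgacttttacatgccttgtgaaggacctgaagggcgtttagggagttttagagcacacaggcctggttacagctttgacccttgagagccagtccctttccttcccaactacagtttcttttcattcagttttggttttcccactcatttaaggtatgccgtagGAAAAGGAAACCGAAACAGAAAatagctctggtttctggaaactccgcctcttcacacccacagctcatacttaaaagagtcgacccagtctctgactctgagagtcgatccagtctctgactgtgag
Socs1: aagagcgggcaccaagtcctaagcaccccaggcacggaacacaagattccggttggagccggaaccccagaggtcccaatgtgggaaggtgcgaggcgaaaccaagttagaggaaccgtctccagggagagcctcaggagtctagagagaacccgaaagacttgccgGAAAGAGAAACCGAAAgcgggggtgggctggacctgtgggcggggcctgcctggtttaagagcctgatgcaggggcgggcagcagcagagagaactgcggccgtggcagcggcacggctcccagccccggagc
Isg15 holds 3 overlapping matches and Socs1 2, all on the strand of the gene, and the single match of Rsad2 lies on the other strand, starting 120 bases before the start site.

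Inflammatory cytokines were lower as well. Of 25 genes of the IL-1 and TNF group 17 were called lower, 0 higher and 8 were not called, with a median of -3.21. Il1b was at 2498, 2423 and 1504 CPM in the nonmigrated pools and 134, 68.8 and 139 CPM in the migrated pools (log2 fold change -4.23, adjusted p = 4.62e-05), and Il1a at 502, 408 and 209.9 CPM in the nonmigrated pools and 1.68, 0.712 and 1.09 CPM in the migrated pools (log2 fold change -8.32, adjusted p = 1.4e-06). Il1rn, the antagonist of both, was lower too (-5.39), as were Il6 (-5.48), Nlrp3, the inflammasome sensor (-5.41), and Osm, oncostatin M (-4.08). By contrast, 16 of 17 NF-kB subunits and regulators were not called and 1 was higher, with a median of 0.07. Rela and Nfkb1 had log2 fold changes of -0.19 and 0.07, and the gene called higher was Relb, of the alternative pathway, at 135, 159 and 86.7 CPM in the nonmigrated pools and 426, 579 and 532 CPM in the migrated pools (log2 fold change 2.02, adjusted p = 5.92e-05). Of 21 prostaglandin and leukotriene genes 20 were tested, 13 called lower and 1 higher. Ptgs2, which encodes cyclooxygenase-2, was at 1115, 726 and 533 CPM in the nonmigrated pools and 56.0, 11.1 and 35.7 CPM in the migrated pools (log2 fold change -4.53, adjusted p = 0.000276). Ptger4, a prostaglandin E2 receptor that promotes the migration of skin dendritic cells, was the one higher, at 56.4, 60.4 and 42.8 CPM in the nonmigrated pools and 174, 189.9 and 194 CPM in the migrated pools (log2 fold change 1.81, adjusted p = 1.72e-05), and Ptger2, which couples to the same second messenger, was lower (-2.80).

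Metabolic and degradative genes were lower in skin migrated cells. Of 28 glycolysis and hypoxia genes 24 were called lower, 0 higher and 4 were not called, with a median of -2.11. Slc16a3, which exports lactate, was at 572, 637 and 543 CPM in the nonmigrated pools and 18.9, 18.2 and 19.5 CPM in the migrated pools (log2 fold change -4.95, SE 0.149, adjusted p = 4.85e-09), Hk3, a hexokinase of myeloid cells, was lower by -6.74, and Gapdh, often used as a reference gene, was at 2243, 2154 and 1721 CPM in the nonmigrated pools and 609, 617 and 553 CPM in the migrated pools (log2 fold change -1.78, adjusted p = 9.41e-07). Hif1a, the hypoxia-inducible factor, was lower by -1.80, and Pfkfb3 was not called. Of 28 lysosomal genes 20 were called lower and 0 higher, with a median of -1.79. Ctsk, cathepsin K, was lower by -7.49. Lamp1 and Cd63, in the lysosome membrane of most cells, were not called. Of 21 matrix proteases and inhibitors 16 were called lower and 0 higher, with a median of -4.71 and of -4.06 with the gene at 0 in all migrated pools set at its bound. Mmp12, the macrophage elastase, was at 8531, 3752 and 4740 CPM in the nonmigrated pools and 13.4, 7.93 and 7.62 CPM in the migrated pools (log2 fold change -9.20, adjusted p = 2.02e-06), and Mmp13, a collagenase, at 1357, 426 and 527 CPM in the nonmigrated pools and 1.02, 0.76 and 0.589 CPM in the migrated pools (log2 fold change -9.93, adjusted p = 2.72e-07).

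Ribosomal protein and cell cycle genes were higher in the migrated pools. Of 52 cytosolic ribosomal protein genes 35 were called higher and 0 lower, with a median of 1.08. With glmTreat, 2 of the 52 were called. In the test against no change the other 17 fell short of the 2-fold limit, not of the p threshold. In all 52 the groups did not overlap, against 61.7% of all tested genes. Their summed level was 19830 to 21560 CPM in nonmigrated and 43910 to 45770 CPM in migrated pools. Rpsa was at 927, 1107 and 827 CPM in the nonmigrated pools and 2784, 3227 and 2943 CPM in the migrated pools (log2 fold change 1.65, adjusted p = 3.09e-06). Of 24 genes of DNA replication and mitosis 12 were called higher and 0 lower, with a median of 1.81. The groups did not overlap in any of the 24, against 61.7% of all tested genes without overlap. Mcm5, of the replicative helicase, was at 22.9, 37.3 and 21.9 CPM in the nonmigrated pools and 136, 140.0 and 84.6 CPM in the migrated pools (log2 fold change 2.13, adjusted p = 0.000126), and Top2a, topoisomerase II, at 39.5, 70.4 and 30.6 CPM in the nonmigrated pools and 238, 219 and 140.1 CPM in the migrated pools (log2 fold change 2.09, adjusted p = 0.00097). Mki67, the proliferation marker, was at 115, 176 and 68.4 CPM in the nonmigrated pools and 410.1, 382 and 232 CPM in the migrated pools and was not called (log2 fold change 1.51, adjusted p = 0.00495). The count of 12 was 0 with glmTreat, 23 with DESeq2, 4 without nonmigrated replicate 1, 5 without nonmigrated replicate 3 or migrated replicate 2, and 6 without migrated replicate 1.

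Transcripts of non-leukocytes were present in the nonmigrated pools despite the CD45 sort. Of 18 keratinocyte markers 14 were tested and 8 were called lower in skin migrated cells, with a median of -7.16, or -4.97 with the 4 genes at 0 in all migrated pools set at their bounds. Krt5 was at 69.0, 143 and 11.6 CPM in the nonmigrated pools and 0, 0 and 0 CPM in the migrated pools, which makes it at least 558-fold lower, and Krt14, its partner keratin, at 53.0, 98.2 and 9.26 CPM in the nonmigrated pools and 0.0885, 0.0475 and 0.0842 CPM in the migrated pools. The summed keratinocyte level was 142.9 to 632.6 CPM in nonmigrated and 33.1 to 47.7 CPM in migrated pools. The count of 8 was 13 without nonmigrated replicate 3 and 5 without any one migrated pool. Of 18 fibroblast and collagen markers 12 were called lower and 0 higher, with a median of -5.96, or -5.72 with 3 genes at their bounds. The summed level of this list ran the other way, at 468.5 to 571.0 CPM in nonmigrated and 646.5 to 686.7 CPM in migrated pools. It includes Thy1, which T cells also express and which is in the T cell list too, at 365, 464 and 147 CPM in the nonmigrated pools and 676, 658 and 634 CPM in the migrated pools (log2 fold change 1.01, adjusted p = 0.0286). Dcn, decorin, was at 17.9, 19.4 and 59.2 CPM in the nonmigrated pools and 0.265, 0.237 and 0.253 CPM in the migrated pools (log2 fold change -6.97, adjusted p = 3.85e-06). The part of such transcripts in the differences above was not tested. Of 14 endothelial markers 5 were called lower (3 without any one migrated pool), and 1, Esam, higher, at 0.744, 1.57 and 0.493 CPM in the nonmigrated pools and 16.9, 18.3 and 20.5 CPM in the migrated pools (log2 fold change 4.32, adjusted p = 1.26e-05). Among 6 tested melanocyte, muscle and adipocyte genes 2 were called higher and 1 lower, and the higher count was 0 or 1 without any one pool. Erythroid and platelet markers numbered 10 tested, 2 called lower and 0 higher, and the haemoglobin gene Hbb-bs was at 21.3, 2.07 and 3.89 CPM in the nonmigrated pools and 1.90, 0.19 and 0.168 CPM in the migrated pools, not called.

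Over all tested genes, those with the smallest p and non-overlapping pools were of mixed function, and some of them are list members. Aire, the autoimmune regulator, known from thymic epithelium and from rare CCR7+ antigen-presenting cells, was at 0.629, 0.952 and 0.591 CPM in the nonmigrated pools and 15.1, 18.3 and 17.0 CPM in the migrated pools (log2 fold change 4.53, SE 0.249, adjusted p = 1.24e-07). H2-M2, a nonclassical MHC class I gene, was at 2.97, 4.03 and 3.10 CPM in the nonmigrated pools and 89.6, 99.5 and 95.9 CPM in the migrated pools (log2 fold change 4.82, adjusted p = 1.87e-07), and Ankrd35 and Heatr9 were higher by 4.66 and 3.89. Chd3, a chromatin remodeller, Fam53b and Ppat, an enzyme of purine synthesis, were higher by 2.13, 2.41 and 1.97. On the lower side, Prdx5, a peroxiredoxin, had the smallest p of all, at 844, 838 and 765 CPM in the nonmigrated pools and 42.4, 43.5 and 46.8 CPM in the migrated pools (log2 fold change -4.20, SE 0.108, adjusted p = 2.2e-09). Sod2, mitochondrial superoxide dismutase, was at 251, 239 and 224 CPM in the nonmigrated pools and 39.7, 33.1 and 35.3 CPM in the migrated pools (log2 fold change -2.72, adjusted p = 1.3e-08), and Slc31a1, the copper importer, Bnip3, a mitophagy receptor counted above among the glycolysis and hypoxia genes, and Adssl1 were lower by -3.84, -5.82 and -5.28. By size of change, the largest among called genes with at least 10 CPM in the higher group and more than 3 counts in every library of the other were the salivary genes Smr3a, Bpifa2, Dcpp1 and Amy1 upward, and downward Nos2, Mmp13 and Arg1, followed by Cxcl3, Pdpn, which encodes podoplanin (-9.48), Mmp12, Inhba, a subunit of activin (-9.15), Hcar2, the niacin receptor (-8.71), Sgms2 (-8.67) and Ccl2. Dnase1, higher by 7.58, was highest in the same migrated pools as the salivary genes, at 506, 28.8 and 187 CPM.

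Over all called genes with a promoter in the table, the C/EBP type motif was found in 8.76% of 925 genes called higher and 13.75% of 1549 called lower, and the interferon type motif in 4.76% and 6.78%. The NF-kB type motif was in 2.27% and 2.84%, the TFE type motif TCACGTGA in 1.62% and 2.39%, against 2.01% of all tested genes, and the ETS type motif GAGGAAGT in 4.11% and 5.16%, against 4.01%. These shares are descriptions of the letters on either strand, and no test was made of them.

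Most of these calls were shared with the joint. There, 3586 genes were called (21.4%), 1476 higher (8.8%) and 2110 lower (12.6%), and 2264 were called in the same direction in both tissues, which is 64.5% of the skin calls and 63.1% of the joint calls. Only 3 genes, Grm6, Socs1 and Mmp10, were called in opposite directions. The difference between the skin change and the joint change was tested as an interaction, and 20 genes (0.119%) were called, 9 (0.0536%) with a more positive and 11 (0.0656%) with a more negative change in skin. Site went with library size, the joint libraries being deeper. With all libraries thinned to the smallest, the count was 21. Any difference in processing between the sites cannot be told apart from site. The count was 330 without skin nonmigrated replicate 3 and 7 to 18 without any one of the other libraries, and 4407 genes had an unadjusted p under 0.05. It was 9 with glmTreat, 290 with no filter on low counts and 661 with DESeq2.

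Of the 9, 7 were immunoglobulin genes. Igkv8-30 was at 0, 0 and 0 CPM in the nonmigrated pools and 21.3, 31.6 and 21.5 CPM in the migrated pools, and at 7.61, 13.1 and 7.50 CPM in the joint nonmigrated and 14.2, 9.89 and 15.2 CPM in the joint migrated pools. The joint nonmigrated pools held more immunoglobulin transcripts than the skin nonmigrated pools. The summed variable segments were at 421.9, 870.7 and 470.2 CPM in joint nonmigrated against 2.40, 8.57 and 27.7 CPM in skin nonmigrated pools, and at 1131, 1413 and 2064 CPM in joint migrated pools. The other 2 were Axl, a receptor for the clearance of dead cells, and Itgb2l, an integrin-like gene of bone marrow neutrophils. Itgb2l was at 90.2, 153 and 245 CPM in joint nonmigrated pools and at no more than 4.94 CPM in any skin pool.

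The 11 with a more negative change in skin were led by Socs1. It fell in skin by -1.48 on the log2 scale and rose in the joint, from 21.4, 17.9 and 19.2 CPM to 36.0, 40.9 and 42.5 CPM (difference -2.51, SE 0.163, adjusted p = 7.99e-05). The migrated pools of the 2 tissues overlapped in level, and the skin nonmigrated pools stood above all others. Parp10, which encodes an interferon-inducible ADP-ribosyltransferase, had the same pattern, at 352, 388 and 296 CPM in the nonmigrated pools and 65.2, 73.2 and 65.8 CPM in the migrated pools and at 62.7, 69.2 and 62.9 CPM and 60.5, 73.4 and 63.4 CPM in the joint groups (difference -2.36, adjusted p = 0.000125). Il7r was at 75.4, 79.7 and 106 CPM in joint nonmigrated and 424, 330.2 and 366 CPM in joint migrated pools, so that its change was positive there (2.10) and not called in skin (difference -2.71, adjusted p = 0.000667). Fth1, ferritin heavy chain, was at 27190, 24470 and 18360 CPM in the nonmigrated pools and 835, 698 and 782 CPM in the migrated pools, and differed less in the joint (-2.74; difference -2.18). Grina, Carmil1, a regulator of actin capping, Ctnnd2, Smox, a polyamine oxidase, Pik3ap1, Gcsam and Rhbdf2 differed by -2.27, -2.93, -3.95, -3.41, -2.44, -4.31 and -1.33. Tcrg-V5 and Itgae were not among the 20: Tcrg-V5 had log2 fold changes of -6.83 in skin and 1.73 in the joint (difference -8.56, adjusted p = 0.00105), and Itgae of 0.30 and 3.84 (difference -3.54, adjusted p = 0.00309).

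**Figure D5:**
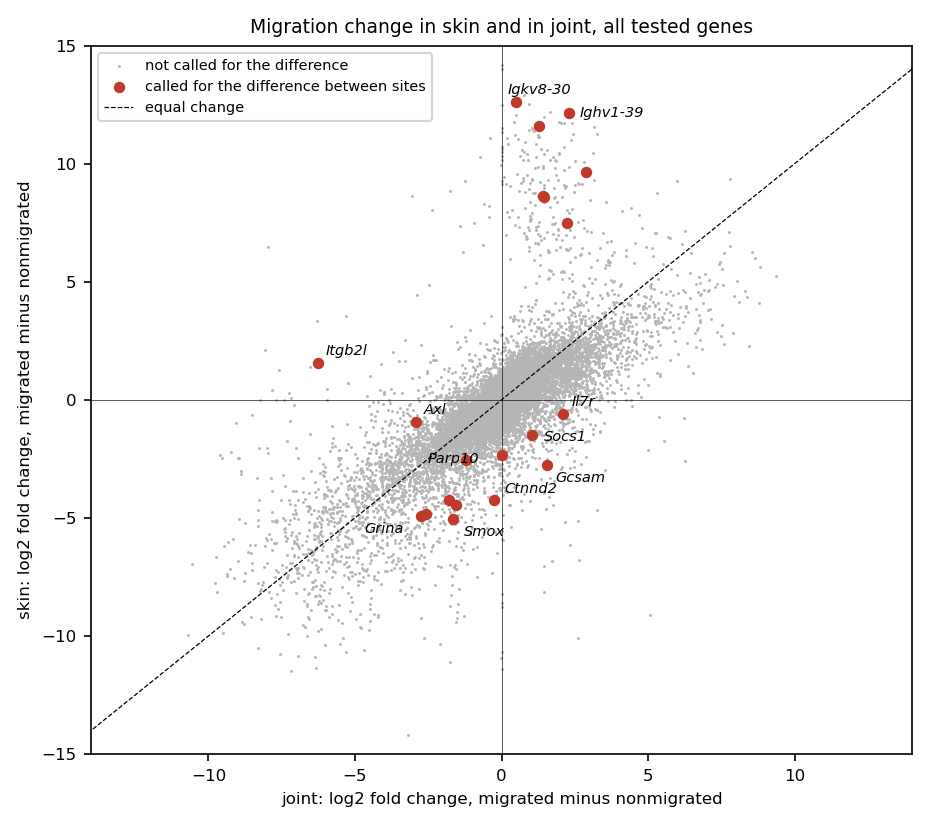
Log2 fold change of each tested gene in the joint (x axis) against that in skin (y axis), migrated minus nonmigrated, with the 20 genes called for the difference in red and a dashed line of equal change. Socs1 lies at 1.03 for the joint and -1.48 for skin, and the 7 immunoglobulin genes lie at the top, at skin values of 7.48 to 12.59.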

How the data were processed

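Reads were made from pools of sorted CD45+ Kaede red+ leukocytes as pairs of 100 bp. Per the labels and the methods of the study, the authors trimmed reads (Trim Galore, FastQC), aligned them with TopHat2 to mm10, counted reads per gene with HTSeq count at its default settings and deposited the whole-number counts. The 5 summary lines that close each table were left out. Counts of 49585 genes were matched to GENCODE M21 (49326 found) for names and positions; 24149 were 0 in all 6 skin libraries. The 12 libraries of the inflamed groups were fitted together with edgeR 4.0.16 (R 4.3.3): TMM factors, filterByExpr with a minimum count of 10, a term for group, glmQLFit and glmQLFTest, with Benjamini-Hochberg adjustment over the 16777 genes tested. Contrasts were skin migrated minus skin nonmigrated, the same for joint, and the difference between both changes. Genes were called at adjusted p under 0.001 and an absolute log2 fold change over 1. Standard errors are the fold change divided by the root of F. Intervals, limits and p-values cover counting error and the spread between pools only. Lists of genes were described by counts and medians, with no list test. Rules gave genes to be named. The first took the 10 called per direction with the smallest p and pools that did not overlap. Another took the 10 called per direction with the largest change, from genes above a floor. That floor was a mean of at least 10 CPM in the higher group and over 3 counts in each library of the other. From each list came up to 6 called members per direction, by fold, with members not called. For the difference between both changes, the 10 per direction with the smallest p were taken. The text also names called list members outside these rules, such as Ifit1, Irf7 and Csf3r. It leaves out some that the rules gave, such as Rtp4 and Oasl2. The members and lists were chosen with earlier results of these data known, and the salivary list after its values were seen. Promoters came from RefSeq (GRCm38.p6). The fit was tested on simulated data. DESeq2 1.42.0, other filters, thresholds, sample sets and each left-out library were alternatives. The 6 steady-state node libraries entered 1 alternative. Values of some list members are not reported here.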

Additional observations from a re-analysis of the deposited data

Results flagged for a closer look

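The change between migrated and nonmigrated cells differed between skin and joint in 20 genes by the test of the interaction (edgeR, adjusted p from 7.99e-05 to 0.000982), and each was singled out for that. Negative values mean a more negative change in skin. Socs1 differed by -2.51, Parp10 by -2.36, Carmil1 by -2.93, Grina by -2.27, Ctnnd2 by -3.95, Gcsam by -4.31, Il7r by -2.71, Smox by -3.41, Pik3ap1 by -2.44, Rhbdf2 by -1.33 and Fth1 by -2.18 on the log2 scale. Socs1 was called lower in skin (-1.48) and higher in the joint (1.03). Gcsam was called lower in skin (-2.77) and not called in the joint (1.54). Il7r was called higher in the joint (2.10) and not called in skin (-0.61). Gcsam was at 8.70, 10.8 and 10.3 CPM in the nonmigrated pools and 1.06, 1.38 and 1.89 CPM in the migrated pools, and at 1.20, 1.86 and 1.54 CPM and 3.73, 3.38 and 6.27 CPM in the joint groups. Ctnnd2 was at 16.2, 15.8 and 16.8 CPM in the nonmigrated pools and 0.885, 1.04 and 0.674 CPM in the migrated pools and at 1.97 CPM in the mean of the joint migrated pools.

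More positive changes in skin were those of Itgb2l (7.81) and Axl (1.98) and of the immunoglobulin genes Igkv8-30 (12.11), Ighv5-6 (10.32), Ighv1-39 (9.86), Igkv12-46 (7.23), Iglv1 (7.15), Igkv1-135 (6.80) and Iglc2 (5.26). Igkv8-30, Ighv5-6 and Ighv1-39 were at 0 counts in all 3 skin nonmigrated pools, so their fitted values depend on the prior count and are no bound. Axl was at 55.0, 62.3 and 82.0 CPM in the nonmigrated pools and 37.9, 33.0 and 31.9 CPM in the migrated pools, and at 189.7, 219 and 203 CPM and 28.2, 24.7 and 27.1 CPM in the joint nonmigrated and migrated pools. Joint libraries held 35554698 to 43814403 counts and skin libraries 19239531 to 22528895, and with all libraries thinned to the smallest 21 genes were called.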

How the results depend on the processing

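In the skin comparison, leaving out 1 of the 12 libraries gave 2566 to 3381 called genes, 899 to 1373 higher and 1550 to 2074 lower. With adjusted p under 0.05 there were 5940 (2633 higher, 3307 lower), with the 6 skin libraries alone 2111 (769 and 1342), and with glmTreat against a 2-fold change 1604 (442 and 1162). The DESeq2 Wald test called 4668, of which 3469 were among the 3508, and the fits with DESeq2 size factors, thinned counts, other filters, 18 libraries or no salivary genes stayed within 1.5 times the count. For the difference between skin and joint, the count of 20 was 1029 (364 higher, 665 lower) at adjusted p under 0.05, 661 (256 and 405) with DESeq2, 290 (128 and 162) with no filter, 301 (123 and 178) with all 18 libraries, 9 (5 and 4) with glmTreat and 169 (43 and 126) without skin nonmigrated replicate 3 and skin migrated replicate 1; leaving out 1 library gave 7 to 330 (2 to 102 and 4 to 228). The cause was not tested.

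Replicate numbers are shared between groups but name pools only. The deviations of same-numbered skin pools correlated by 0.178, 0.075 and 0.15, and each pool correlated best with its own number, a hint from the data and not the design. With a replicate block, 2750 skin genes were called (1017 higher, 1733 lower; 2669 of the 3508), and 1 in the difference between skin and joint (1 higher, 0 lower).

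Of 160 called genes named in the text, 125 kept their call without any one library and 35 lost it in at least 1 such fit, none of them changing sign: Bcl11b, Bpifa2, C1qa, C1qc, Cacnb3, Ccr10, Ccr2, Ccr4, Cd163, Cd207, Cd55, Cxcr3, Cxcr5, Dcpp1, Foxp3, Fscn1, Gbp2, Grm6, H2-Oa, Il4, Il6, Itga4, Klrg1, Lef1, Ltb, Marcksl1, Mcm5, Mmp10, Ptgs2, S1pr4, Serpina3g, Smr3a, Socs2, Top2a and Zbtb46. Genes not called whose small fold change turned sign over the 12 such fits were Cd86 (-0.25 to 0.15), Ciita (-0.10 to 0.45), Il17a (-0.42 to 0.66), Itgae (-0.01 to 0.63), Ly6c2 (-0.14 to 0.15), Nfkb1 (-0.07 to 0.17) and Prf1 (-0.50 to 0.18). Without the pair of pools named above, Cd86 was at 0.08, Ciita at 0.60, Ly6c2 at 0.23, Il17a at -0.85, Itgae at -0.19 and Nfkb1 at -0.01, and Il17a was at 0.00 with DESeq2 size factors, at -0.01 with DESeq2, and Cd86 at 0.00 with 18 libraries. Both alternatives on single pools and salivary genes were chosen after seeing the data. A count of 3 was worth 0.126 to 0.172 CPM in the skin libraries.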

Other observations

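Outside the skin comparison, the 16 salivary genes took at most 0.000338% of counts in any joint or steady-state node library, including the node that drains the ear in mice without inflammation. Within the skin migrated group they ranged from 26451 counts in replicate 2 and 230847 in replicate 3 to 595191 in replicate 1.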
